A study of Mus musculus with 2 samples.

Results

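The genes described here encode the machinery that brings proteins into the endoplasmic reticulum (ER), folds them, disposes of those that fail to fold, reports on the state of the compartment and ships finished proteins onward. They were chosen by the gene name printed on the array: the name patterns of the signal recognition particle, the Sec, Ssr, Pdia, Edem and Derl families, and 17 single genes. Among the single genes were the stress sensors Ern1, Atf6 and Eif2ak3 and the transcription factor Xbp1. The rule reads gene names alone. It gave 60 genes with 79 probes, of 25509 named genes on the array. RNA came from the gastrocnemius, a calf muscle of the hindlimb, of male C57BL/6 mice aged 9 weeks. The control group had no cast, and the other group, called cast here, had its hindlimb muscles immobilized in plaster for 11 days. The labels describe wild-type animals and give no genetic change in either group. The labels give 6 mice per group and 1 pooled RNA sample from them, which was hybridised to 1 array. Each group was therefore n = 1, so no test of a difference was possible, and the spread between mice was not measured.

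Secreted and membrane proteins carry a signal sequence, which the signal recognition particle binds as it leaves the ribosome. The ribosome docks at the Sec61 channel, the chain passes through it, and signal peptidase cuts the signal off. Inside, lectin chaperones, the Hsp70-type chaperone BiP and disulfide isomerases fold the chain. Chains that do not fold are sent back to the cytosol for degradation, and folded ones leave in vesicles with a Sec23/Sec24 and Sec31 coat. When unfolded protein builds up, IRE1 (gene Ern1), PERK (Eif2ak3) and ATF6 start the unfolded protein response, in which IRE1 splices Xbp1 mRNA and PERK slows translation. Muscle fibres hold a specialised ER, the sarcoplasmic reticulum, which stores calcium, and the collagen-making cells between the fibres are heavy users of the folding machinery.

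ATF6 and XBP1 are known to act through short promoter elements, so the members that carry one are shown before the values. Promoters from 250 bases before to 50 bases after the start of transcription, from RefSeq on GRCm38.p6, were matched for 50 of the 60 members. They were searched on both strands for the ER stress response element, which is CCAAT, any 9 bases and CCACG, for its second form, ATTGG, any 1 base and CCACG, and for the unfolded protein response element TGACGTGG. The forms of the stress element share the letters CCACG. The first element was present in 7 of the 50 members (14%) and in 39 of all 32851 promoters of that length (0.119%), or 37 of 27025 genes (0.137%). The second form was present in Herpud1 alone among the members (2%) and in 12 of all promoters (0.0365%). In the lines that follow, each element stands in capitals at its fixed letters with 20 bases on either side, read 5′ to 3′ on the strand where it matches.
Calr, chr8:84847055-84847113, plus strand: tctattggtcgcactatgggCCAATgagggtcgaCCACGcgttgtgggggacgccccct
Canx, chr11:50325780-50325838, minus strand: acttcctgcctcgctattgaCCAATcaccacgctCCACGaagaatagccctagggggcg
Creld2, chr15:88819500-88819558, minus strand: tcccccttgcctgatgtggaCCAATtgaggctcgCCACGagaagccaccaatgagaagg
Derl3, chr10:75893222-75893280, minus strand: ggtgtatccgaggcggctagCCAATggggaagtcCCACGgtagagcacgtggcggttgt
Ero1lb, chr13:12565662-12565720, minus strand: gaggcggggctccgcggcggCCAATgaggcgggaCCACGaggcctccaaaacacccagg
Pdia6, chr12:17266471-17266529, plus strand: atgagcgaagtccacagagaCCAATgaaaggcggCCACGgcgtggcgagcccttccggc
Syvn1, chr19:6046512-6046570, plus strand: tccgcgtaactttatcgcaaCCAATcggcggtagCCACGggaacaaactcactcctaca
Herpud1 (second form), chr8:94386357-94386407, plus strand: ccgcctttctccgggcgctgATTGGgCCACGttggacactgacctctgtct

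The element of Syvn1 lay nearest to its start of transcription, 44 to 26 bases before it, and that of Ero1lb farthest, 201 to 183 bases before it. The unfolded protein response element was present in Sec23a, 6 to 13 bases after the start, and in Sec24d, 26 to 19 bases before it. That is 2 of 50 members (4%), beside 222 of all promoters (0.676%). These matches describe letters in a window and say nothing of binding in muscle.

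Signals are given as log2 levels relative to the 75th percentile of all non-control probes on the same array, and a difference is the cast level minus the control level. A level of 0 is the 75th percentile itself, and levels of different genes cannot be compared, because probes differ in how well they hybridise. The error attached to a difference is the spot-level SD. It was taken from 259 probes printed several times on each array and ran from 0.08 for the brightest signals to 0.16 for the dimmest, and it covers neither mice nor pools. A threshold of 1.5-fold served for counts. The control array had 60.6% of its probes well above background by the scanner software's flag and the cast array 56.8%, and no gene spot was saturated.

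Of the 60 members, 56 were well above background on both arrays and 4 on neither, and none was so on 1 array only. The 4 were Hyou1, which exchanges nucleotide on BiP, the isomerase Pdia2, the Sec22 family member Sec22a and the degradation factor Derl3. Of the 56 measured members, 33 (58.9%) were higher on the cast array and 23 were lower, whereas 46.9% of all 15154 measured genes were higher. Their median difference was 0.06, with quartiles of -0.16 and 0.35, and that of all measured genes was -0.03, with quartiles of -0.27 and 0.23. At least 1.5-fold higher were 4 members, Sec63, Canx, P4hb and Ero1l, where 7.04% of all measured genes were that much higher. At least 1.5-fold lower was 1 member, Srp54a, where the share of all genes was 8.24%. The members' own shares were 7.14% and 1.79%, so the share of higher members was near that of all genes. Among the 40 members at or above the median signal of measured genes, 25 were higher, where 50.9% of all such genes were. Of these 40, Canx and P4hb passed 1.5-fold upward, beside 7.07% of such genes, and Srp54a downward, beside 6.99%. A 2-fold difference was passed by Sec63 alone, upward, where 2.23% of all genes passed it upward and 2.11% downward. Beyond 2 spot-level SDs, 22 members were higher (39.3%) and 11 lower (19.6%), where 26.6% of all measured genes were that far higher and 29.4% that far lower.

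The direction of the lower members depends on how the arrays are scaled. Of 5 other scalings, that on the array median, that on the spike-in controls and no scaling add 0.08, 0.35 and 0.34 to the difference of every gene, so no higher member could turn under them. Under quantile and loess scaling, which move genes by their signal, all 33 higher members stayed above 0. Of the 23 lower members, Sec61a2, Sec61b, Sec22b, Sec23a and Srp54a stayed below 0 under all 5, and 18 were above 0 under at least 1. The whole array moved with them, since 79.9% of all measured genes were above 0 without scaling and 80.7% with spike-in scaling. Differences between members do not change with the median, spike-in or absent scaling.

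**Figure D1:**
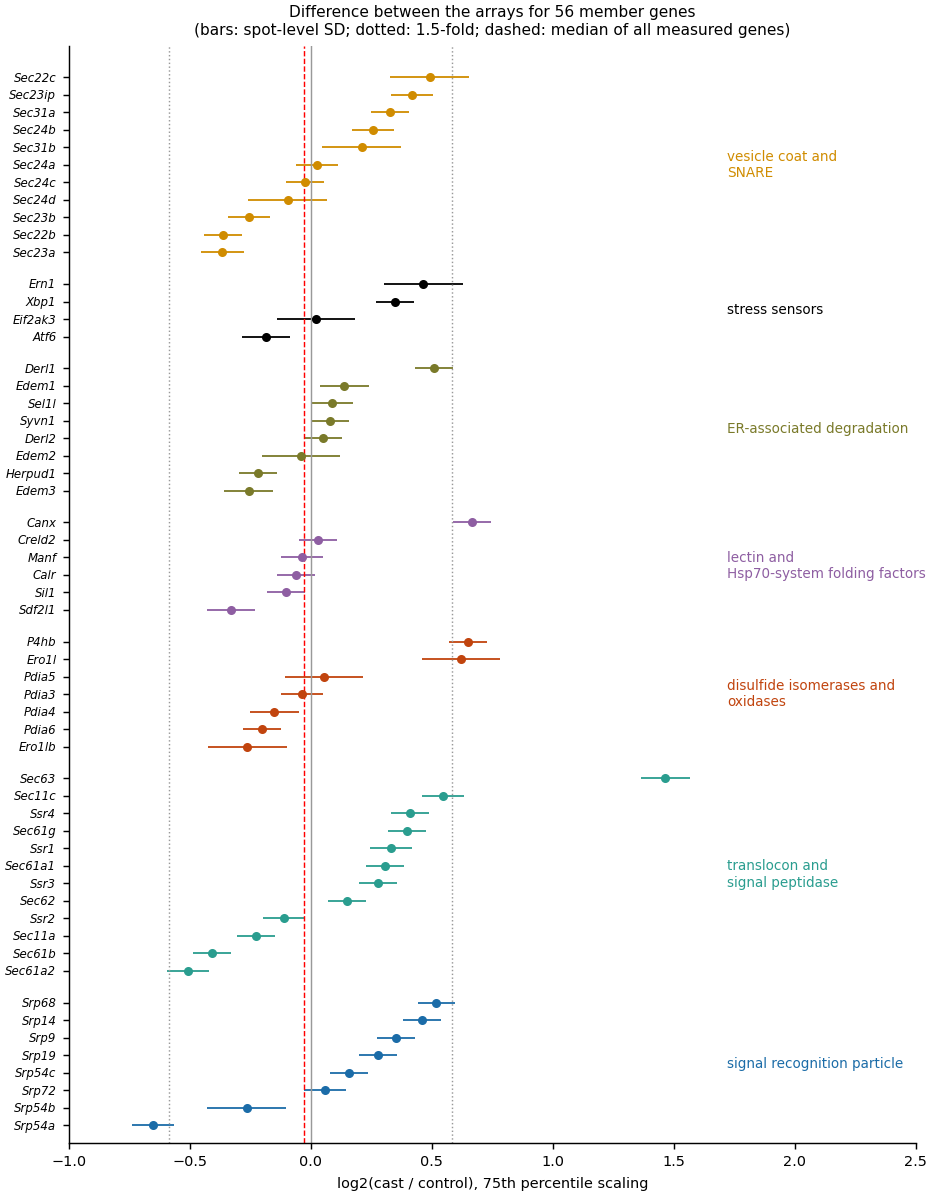
Difference between the cast and the control array, as log2(cast / control) after 75th percentile scaling, for the 56 measured members, 1 point a gene, ordered within 7 role groups. Bars are the spot-level SD, dotted lines mark 1.5-fold and the dashed line the median of all measured genes, -0.03. Sec63 lies at 1.47 and Srp54a at -0.65, with the rest between. Of the 23 members left of 0, 18 change sign under another scaling.

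The signal recognition particle had 8 members, all measured, of which 6 were higher on the cast array, with a median difference of 0.22. The median was 0.20 under quantile and 0.18 under loess scaling, and the median, spike-in or absent scaling could only raise it. Srp68, which with Srp72 forms the large protein pair of the particle, went from 3.26 on the control array to 3.78 on the cast array, a difference of 0.52 ± 0.08 (spot-level SD). Srp14, which with Srp9 holds back elongation of the chain, was printed on 10 spots. The highest of its control spots was at 4.20 (mean 4.11), and the lowest of its cast spots at 4.47 (mean 4.57). The spots of Srp14 did not overlap between the arrays, as held for 54.4% of the 259 replicated probes, and the difference was 0.46. Srp9 differed by 0.35 and Srp19, an assembly factor of the particle, by 0.28. A further probe of each was higher too, by 0.11 for Srp9 and by 0.40 for Srp19. Srp72 differed by 0.06, within its spot-level SD of 0.09, on its brighter probe and by 0.54 on its dimmer one.

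Srp54 is the subunit that grips the signal sequence, and the mouse array carries 3 near-identical copies of its gene, Srp54a, Srp54b and Srp54c, whose transcripts may share signal. Their values are therefore uncertain. Srp54a went from 0.77 on the control array to 0.11 on the cast array, 1.57-fold lower, with a difference of -0.65 ± 0.09 (spot-level SD). Its probe lies at chr12:56216293-56216352 (mm9, plus strand). A dimmer Srp54a probe, across an exon junction at chr12:56190256-56191171 (mm9, plus strand), went from -0.95 to -0.85, a difference of 0.10 ± 0.10. The probes of Srp54a thus gave values on opposite sides of 0, and their mean, -0.28, no longer passed 1.5-fold. Srp54b was dim on both arrays and differed by -0.27 ± 0.16, and the sign turned without scaling and with spike-in scaling. Srp54c differed by 0.16 ± 0.08.

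The channel and signal peptidase had 12 members, all measured. Of these 8 were higher on the cast array, with a median difference of 0.29. The median was 0.24 under quantile and 0.25 under loess scaling, and the other scalings could only raise it. It was 0.19 with the mean of each gene's probes in place of the brightest. Sec63, a membrane J protein that recruits BiP to the channel, had the highest value of all members. Its brighter probe was printed on 10 spots, which ran from -1.21 to -1.03 in control (mean -1.14, SD 0.05) and from 0.27 to 0.43 in cast (mean 0.33, SD 0.05). The spots of the arrays did not overlap, as held for 54.4% of the 259 replicated probes, and the difference was 1.47, or 2.76-fold. This probe is 60 bases long and lies across an exon junction, its ends falling at chr10:42543733-42547689 (mm9, plus strand), as the span is longer than the probe. The sequence, shown because this value rests on it, is:
Sec63 probe: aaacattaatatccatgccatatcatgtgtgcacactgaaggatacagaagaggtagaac

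A further Sec63 probe, at chr10:42551846-42551905 (mm9, plus strand), went from -2.12 to -2.00, a difference of 0.13 ± 0.16, within its spot-level SD. The probes of Sec63 thus differed by more than 1 log2 unit from each other, the 1 such case (6.67%) among 15 members with several probes, where 2.77% of all 3496 genes with several probes did so. Their mean was 0.80, still past 1.5-fold. Which transcripts each probe reads was not tested. With normexp background correction, Sec63 differed by 1.20. This correction added an offset of 50 to each signal, which by itself shrinks the differences of dim probes.

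**Figure D2:**
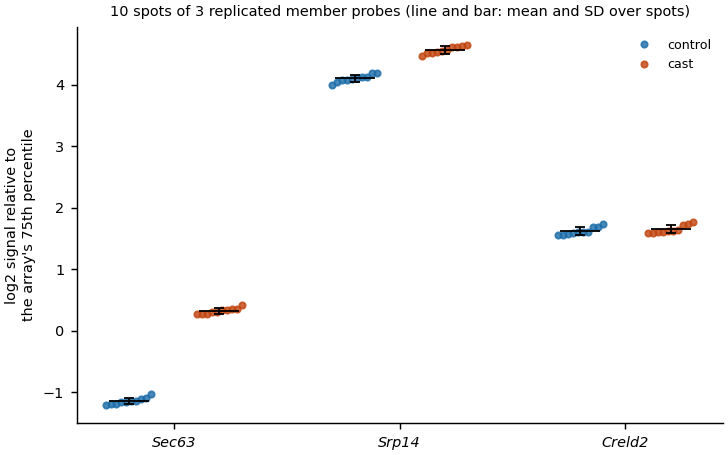
Log2 signal relative to the array's 75th percentile for each of the 10 spots of the 3 member probes printed more than once, Sec63, Srp14 and Creld2, on each array, with the mean and SD over spots. Spots of Sec63 and Srp14 are separate between the arrays (means -1.14 and 0.33 for Sec63, 4.11 and 4.57 for Srp14), while those of Creld2 overlap (means 1.62 and 1.65). Of the 259 replicated probes on the array, 54.4% have separate spots. Spots of 1 array are repeats of 1 hybridised pool, not of mice.

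Sec62, the partner of Sec63, had probes of opposite sign. The brighter one went from 3.23 to 3.38, a difference of 0.15 ± 0.08, and the dimmer one from -2.47 to -2.91, a difference of -0.44 ± 0.16. The mean over the Sec62 probes, -0.15, lay below 0. Of the channel subunits, Sec61g differed by 0.40 and Sec61a1, the main form of the pore, by 0.31. Sec61b was lower, from 4.13 to 3.72, a difference of -0.41 ± 0.08, and its dimmer probe differed by -0.72. Sec61a2, the other form of the pore, was the lowest of the group and went from 0.94 on the control array to 0.43 on the cast array, a difference of -0.51 ± 0.09. The pore forms thus lay on opposite sides of 0, 0.81 ± 0.12 (spot-level SD) apart.

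The Ssr proteins form the translocon-associated protein complex, which helps weakly inserting chains through the channel. Ssr4 differed by 0.41, Ssr1 by 0.33, Ssr3 by 0.28 and Ssr2 by -0.11, whose sign turned without scaling and with spike-in scaling. Ssr1 had 3 probes, of which the brightest went from 0.76 to 1.09 and the dimmest from -3.59 to -3.91, a difference of -0.32 ± 0.16. The third probe of Ssr1 differed by 0.22, so its highest and lowest probes lay beyond 1 spot-level SD on opposite sides of 0. Of the catalytic subunits of signal peptidase, Sec11c went from -0.20 to 0.35, a difference of 0.55 ± 0.09. Sec11a differed by -0.23 and -0.24 on its probes, with the sign turned without scaling and with spike-in scaling. Sec11c and Sec11a were 0.77 ± 0.12 apart, a gap that holds under any shift of the whole array.

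**Figure D3:**
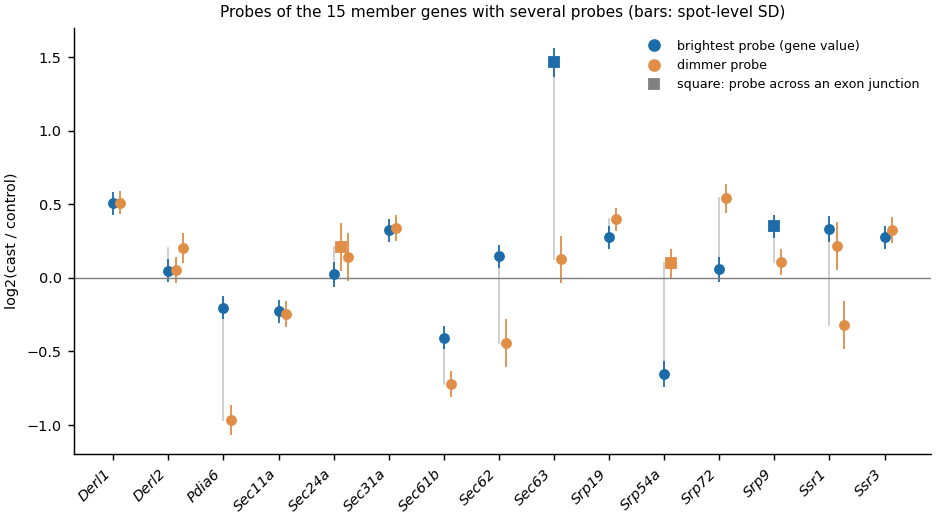
Log2(cast / control) of each probe above background on both arrays for the 15 members with several such probes. The brightest probe, which gives the gene's value, and the dimmer ones have separate colours, squares are probes across an exon junction, and bars are the spot-level SD. In 12 of 15 genes all probes share a sign, and Sec63 has the widest gap, 1.47 against 0.13.

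Of the 15 members with several probes, 12 (80.0%) had all probes on 1 side of 0, and of all 3496 such genes 72.8% did. The exceptions were Srp54a, Sec62 and Ssr1. The median gap between the highest and the lowest probe was 0.24 in members and 0.18 in all such genes. Pdia6 also had a wide gap, with -0.20 on its brighter and -0.97 on its dimmer probe, both below 0.

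Disulfide isomerases and oxidases had 8 members, 7 of them measured. Of the 7, 3 were higher on the cast array, and the median difference was -0.04, which was above 0 under 3 of the 5 other scalings. P4hb, the first protein disulfide isomerase and also a subunit of the prolyl hydroxylase of collagen, went from 2.59 on the control array to 3.24 on the cast array. The difference was 0.65 ± 0.08 (spot-level SD), or 1.57-fold, from a single probe at chr11:120422076-120422135 (mm9, minus strand). It was 0.62 under quantile and under loess scaling, 0.68 with normexp background correction and 0.66 in the deposited value table, each past 1.5-fold. The filter and probe-rule alternatives cannot change a single bright probe, and the other scalings could only raise its value. Pdia6 was lower, from 3.66 to 3.46, and P4hb and Pdia6 were 0.85 ± 0.11 apart. Pdia3, which works with the lectin chaperones, differed by -0.04, Pdia4 by -0.15 and Pdia5 by 0.05, and the signs of Pdia3, Pdia4 and Pdia6 turned under other scalings.

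Ero1l (now Ero1a) and Ero1lb (now Ero1b) encode the oxidases that recharge the isomerases. Ero1l went from -4.40 on the control array to -3.78 on the cast array, a difference of 0.62 ± 0.16 (spot-level SD), or 1.54-fold. Its signal on the control array, 18.2, was close to the lowest called well above background there, 13.1. The value of Ero1l was 0.11 with normexp background correction and 0.49 in the deposited value table, both under 1.5-fold. The normexp offset of 50 exceeds the Ero1l signals, 18.2 in control and 35.4 in cast, so a smaller normexp value was set in advance. Ero1lb, the lowest of the group, went from -2.37 to -2.63, a difference of -0.26 ± 0.16, which turned to 0.09 with spike-in scaling.

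Lectin and Hsp70-system folding factors had 7 members, 6 of them measured. Of the 6, 2 were higher on the cast array, and the median difference was -0.05, above 0 under 3 of the 5 other scalings. Canx, the membrane lectin chaperone calnexin, went from 3.35 on the control array to 4.02 on the cast array. The difference was 0.67 ± 0.08 (spot-level SD), or 1.59-fold, from a single probe at chr11:50108047-50108106 (mm9, minus strand). It was 0.64 under quantile and 0.61 under loess scaling, and 0.68 both with normexp background correction and in the deposited value table, each past 1.5-fold. As for P4hb, the remaining alternatives could not lower the value. Calr, its soluble relative calreticulin, went from 2.74 to 2.68, a difference of -0.06 ± 0.08, whose sign turned under 3 scalings. Canx and Calr were 0.73 ± 0.11 apart.

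Creld2 and Manf are folding factors that cells make under ER stress. Creld2, on 10 spots, had a mean level of 1.62 in control and 1.65 in cast, and its spots overlapped. Manf differed by -0.04 and Sil1, which exchanges nucleotide on BiP, by -0.10. Sdf2l1, a stress-induced partner of ER J proteins, was the lowest of the group and went from -1.21 to -1.54, a difference of -0.33 ± 0.10. The signs of Manf, Sil1 and Sdf2l1 turned without scaling and with spike-in scaling, where Sdf2l1 stood at 0.02.

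**Figure D4:**
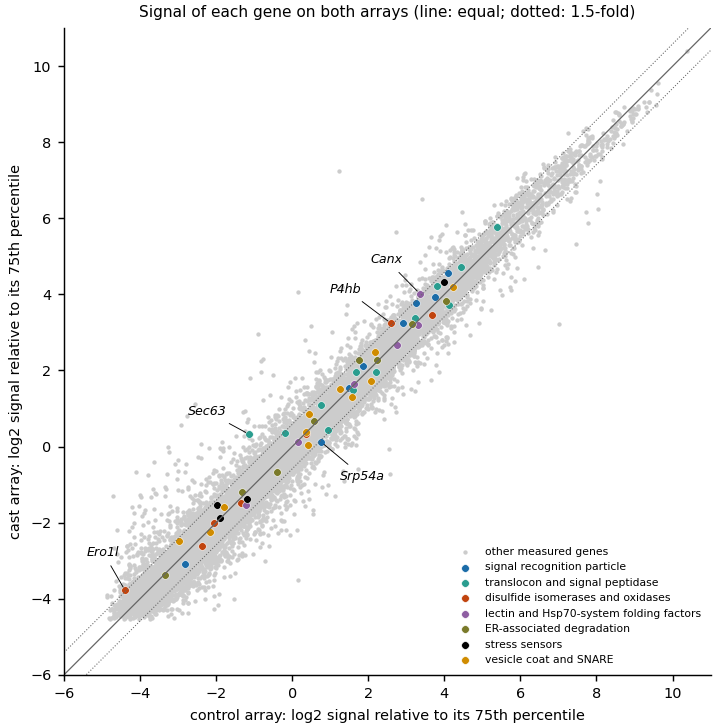
Log2 signal relative to the array's 75th percentile on the control (x) and the cast (y) array for each measured gene, grey for all and coloured by role for the members. The solid line marks equal signal and dotted lines 1.5-fold. Canx, P4hb, Sec63 and Ero1l lie above the upper dotted line and Srp54a below the lower one, while the other members lie between the lines.

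Degradation factors had 9 members, 8 of them measured, of which 5 lay above 0. Their median difference was 0.06, and it was 0.05 under quantile and under loess scaling. The other scalings could only raise it. Derl1, a membrane protein of the exit channel, went from 1.76 on the control array to 2.27 on the cast array, a difference of 0.51 ± 0.08 on each of its probes. Derl2 had 3 probes, which differed by 0.05, 0.05 and 0.21. Derl1 and Derl2 were 0.46 ± 0.11 apart. Syvn1, the ubiquitin ligase of this pathway, differed by 0.08 and its partner Sel1l by 0.09.

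Herpud1, a stress-induced scaffold of the ligase, went from 4.05 to 3.84, a difference of -0.22 ± 0.08. Of the Edem proteins, which mark misfolded glycoproteins, Edem1 differed by 0.14 and Edem2 by -0.04. Edem3 was the lowest of the group and went from -0.41 to -0.66, a difference of -0.26 ± 0.10. The signs of Herpud1 and Edem3 turned without scaling and with spike-in scaling, and that of Edem2 under all 5.

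The stress sensor group had 4 members, the sensors Ern1, Eif2ak3 and Atf6 and the transcription factor Xbp1. All were measured, each with a single probe, and none passed 1.5-fold. Ern1, the sensor kinase and nuclease IRE1, went from -1.99 on the control array to -1.53 on the cast array, a difference of 0.46 ± 0.16 (spot-level SD). It was 0.27 with normexp background correction and 0.81 with spike-in scaling. Xbp1, the transcription factor whose mRNA IRE1 splices, went from 3.98 to 4.33, a difference of 0.35 ± 0.08. Whether the Xbp1 probe, at chr11:5425816-5425875 (mm9, plus strand), tells the spliced form apart was not tested.

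The other sensors lay near 0 or below it. Eif2ak3 went from -1.89 on the control array to -1.87 on the cast array, a difference of 0.02 ± 0.16. Atf6 went from -1.19 to -1.38, a difference of -0.19 ± 0.10, and it stood at 0.15 without scaling. The median of the group, Xbp1 included, was 0.18, and it was 0.17 under quantile and 0.19 under loess scaling. The other scalings could only raise it. Of the sensors alone, Eif2ak3 held the middle value, 0.02. The array measures mRNA, while the sensors are switched on as proteins and Xbp1 mRNA is spliced, and neither step was measured.

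Coat and Sec22 family members (vesicle coat and SNARE in the figures) were 12, of which 11 were measured and 6 lay above 0. Their median was 0.02, and it fell just below 0 under 2 of the 12 alternatives. Sec22c was the highest and went from -2.97 on the control array to -2.48 on the cast array, a difference of 0.49 ± 0.16, but it was 0.10 with normexp background correction. Sec22b, a SNARE of traffic between ER and Golgi, went from 2.07 to 1.71, a difference of -0.36 ± 0.08, so Sec22b and Sec22c were 0.85 ± 0.18 apart.

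In the inner coat, Sec23a was the lowest and went from 0.41 to 0.05, a difference of -0.37 ± 0.09, and stayed below 0 under all scalings. Sec23b differed by -0.26, within the error of Sec23a, since the pair were 0.11 ± 0.12 apart. The cargo adaptors differed by 0.26 for Sec24b, 0.02 for Sec24a, -0.02 for Sec24c and -0.10 for Sec24d. The outer coat was on the higher side, with 0.33 for Sec31a, 0.34 on its dimmer probe and 0.21 ± 0.16 for Sec31b, which was 0.07 with normexp background correction. Sec23ip, which binds Sec23 at ER exit sites, differed by 0.42. The signs of Sec23b, Sec24c and Sec24d turned without scaling and with spike-in scaling. The relatives set side by side in these paragraphs were paired after their values were seen.

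**Figure D5:**
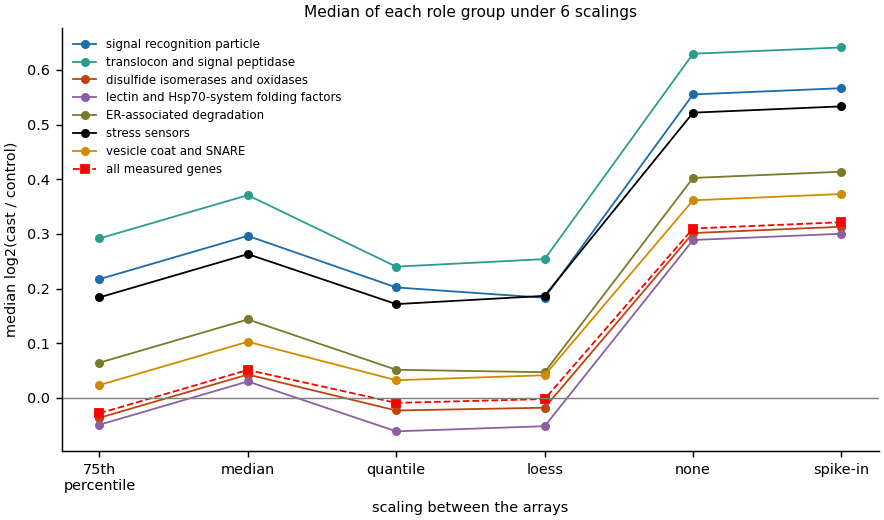
Median log2(cast / control) of each of the 7 role groups and of all measured genes (dashed) under 6 scalings, with lines joining the values of a group. The channel, signal recognition particle and sensor groups, the last with Xbp1, lie above all measured genes under each scaling (0.29, 0.22, 0.18 and -0.03 at the 75th percentile). The disulfide and lectin groups lie at or just below all genes and change sign with the median, spike-in and no scaling, while their place relative to all genes changes little.

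The members with the stress element in their promoter did not lie to 1 side. Of the 7 with its first form, 6 were measured and 3 were higher on the cast array, with a median of -0.02 and a range from -0.26 (Ero1lb) to 0.67 (Canx). Of the 41 measured members whose promoter lacked it, 25 were higher, with a median of 0.06. Herpud1, with the second form, stood at -0.22. Sec23a and Sec24d, with the unfolded protein response element, stood at -0.37 and -0.10.

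Other genes of the same pathways, outside the name rule, were described by 8 lists of 98 genes, of which 94 were measured. Of the 94, 39 (41.5%) were higher on the cast array, beside 46.9% of all measured genes. At least 1.5-fold higher were 5 (5.32%) and lower 5 (5.32%), both under the 7.04% and 8.24% of all genes. Their median was -0.03, as for all measured genes. BiP itself, Hspa5, differed by -0.02, with its sign turned in 3 scalings, and Hsp90b1 by 0.06. Among the 8 genes of the Hsp70, Hsp90 and J protein list, 3 were higher, from Dnajb11 at 0.27 to Hspa13 at -0.33. Hspa5 and Hsp90b1 both carry the first stress element, as did Dnajc3, which made 3 of 74 pathway genes with a promoter (4.05%). The second form was present in 2 of the 74, Dnajb11 at 0.27 and Krtcap2 at -0.07. The unfolded protein response element was present in 6 (8.11%), of which Ube2j1 (0.70), Sec16b (0.27), Txndc11 (0.17) and Vcp (0.13) lay above 0 and Kdelr3 (-0.14) and Txndc5 (-0.35) below.

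The 16 effectors of the stress response had 7 members higher, with a median of -0.03, which was above 0 under the 5 other scalings. Ppp1r15a, which reverses the translation block that PERK sets, was the highest and went from 2.27 on the control array to 3.40 on the cast array, a difference of 1.13 ± 0.08. Crebzf was the lowest at -0.68, with another probe at 0.14, and Wfs1 stood at -0.64. Atf4, the transcription factor downstream of PERK, differed by -0.04 and Ddit3, the factor CHOP, by -0.36. On the same list, Asns differed by 0.42 ± 0.10, Chac1 by 0.325 ± 0.08 and Trib3 by 0.14 ± 0.10. These stayed above 0 under the 5 other scalings, while 9 of the 16 genes lay below 0 with the main scaling.

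Further degradation genes were 15 measured of 17, with 9 higher and a median of 0.10. Nploc4, a cofactor of the ATPase that pulls chains out of the membrane, went from 2.93 to 4.06, a difference of 1.13 ± 0.08. Its partner Ufd1 stood at 0.76, with another probe at -0.14, and the conjugating enzyme Ube2j1 at 0.70. The lowest of the 3 Ube2j1 probes differed by 0.29, under 1.5-fold. Rnf5, a membrane ubiquitin ligase, was the lowest and went from 1.74 to 0.95, a difference of -0.79 ± 0.09.

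Of the 10 subunits of oligosaccharyltransferase, which adds sugar chains at the channel, 2 were higher, from Stt3b at 0.28 to Ostc at -0.62. Another probe of Stt3b stood at 0.94. Of 7 further genes, subunits of signal peptidase and of the particle's receptor with Tram1 and Tram2, 5 were higher, from Tram2 at 0.59 to Srpr at -0.34. Of 8 measured glucosidases and glycoprotein quality factors, 4 were higher, from Uggt1 at 0.44 to Mcfd2 at -0.44. Another probe of Uggt1 stood at 0.01. Of 18 further thioredoxin-fold proteins and prolyl isomerases, 5 were higher, from Ppib at 0.19 to Tmx2 at -0.63. Of 12 coat partners and cargo receptors, 4 were higher, from Sec16b at 0.27 to Tmed9 at -0.22. The medians of these 5 lists were -0.06, 0.17, 0.03, -0.16 and -0.04 in that order, and without scaling or with spike-in scaling all 5 were above 0.

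Markers of the cell types a muscle sample can hold also differed between the pools. As a baseline for their counts, 7112 of all 15154 measured genes lay above 0 and 8042 below it. A drop of 1.5-fold or more was found in 8.24% of all measured genes. Muscle fibre markers, which define the labelled tissue, were all measured, and 11 of 12 were lower, with a summed log2 level of 12.10 in control and 11.88 in cast. Such a sum adds linear signals, so the brightest probes of a list weigh most in it. All 10 fibroblast markers were lower, 7 of them by at least 1.5-fold, with a summed level of 7.89 and 7.13, and Col1a1 differed by -1.76. Of the macrophage markers, 7 of 8 measured were higher, with a summed level of 3.18 and 3.39, while Cd68 and Fcgr1 were not well above background. Lyz2 was the highest of the 7 at 0.58. Csf1r differed by 0.01, within its spot-level SD of 0.08, and was below 0 under quantile and loess scaling. Adgre1, the lower one, differed by -0.06 ± 0.16. Of the plasma and B cell markers 3 were measured, all lower, with a summed level of -1.24 and -1.66, and 6, among them Cd79a, Cd79b and Jchain, were not well above background. Endothelial markers were lower in 7 of 8 (5.68 and 5.36), adipocyte markers in 4 of 5 (5.41 and 5.28), and Schwann cell markers in 3 of 6 (3.24 on both). The higher adipocyte marker, Retn, differed by 0.86, with 0.75 on its other probe, and was the only marker of that list past 1.5-fold. The medians of the muscle fibre, endothelial, adipocyte and Schwann cell markers were above 0 without scaling and with spike-in scaling. That of the fibroblast markers stayed below 0 under all scalings. The macrophage median was 0.36 under quantile and 0.38 under loess scaling, and the other scalings could only raise it. In these whole-muscle pools, fewer cells of a type and less RNA per cell cannot be told apart. The part of these markers in the values of Canx, P4hb, the channel group and the other members was not tested.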

How the data were processed

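Per the file headers, the authors deposited 1 scanner file for each pool, from 1-colour Agilent whole mouse genome arrays. The submitters' processing notes name Agilent Feature Extraction 9.5. The deposited unit is the processed intensity of a spot, corrected for background within the array and not normalized between arrays, per the file headers. A deposited value table holds the same intensity as a percentage of each array's 75th percentile, found by setting it against the scanner files. The column medians were 9.00 (control) and 8.70 (cast). Because 54.9% of the table's values were exactly whole (no tolerance), within 0.5 of the unrounded value, it served as an alternative only.

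From these, log2 intensity was computed, the 75th percentile of each array over non-control probes (385 control, 486 cast) was subtracted, and spots of a probe were averaged. Spots with a non-uniformity flag (2 control, 9 cast) were left out. A gene counted as measured when both arrays flagged more than 0.5 of the spots of 1 of its probes as well above background, and its value is that of the brightest such probe. Probes were named by accession through the reference gene table for 26048 of 39418 probes, and 32845 had a symbol. Probe positions are on mm9, as in the files, and whether a probe lies in a coding exon or a UTR was not analysed here. Arrays have no read depth, and their number limits the precision.

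Named are members past 1.5-fold, the sensors and Xbp1, and the highest and lowest of each role group. Also named are genes whose probes differ in sign beyond 1 spot-level SD, and the highest and lowest of each further list. Other names were chosen after their values were seen. The members and lists were chosen with earlier results of these data known. Python 3.11.15, pandas 2.3.3, statsmodels 0.14.6 (loess) and limma 3.58.1 in R 4.3.3 (normexp, offset 50) were used. Recovery of known differences by the scaling and gene steps was tested on simulated data, and the counts were not. The 12 alternatives are scaling, background correction, filter, probe rule and source of values.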

Additional observations from a re-analysis of the deposited data

How the results depend on the processing

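The count of members at least 1.5-fold higher was 4, and it became 7 with median scaling, 21 without scaling, 21 with spike-in scaling and 2 among the brighter genes only. The count at least 1.5-fold lower was 1, and it became 0 with median scaling, without scaling, with spike-in scaling and with the mean or the median of a gene's probes, and 2 with no background filter. The median difference of the members was 0.06, and it became 0.39 without scaling and 0.41 with spike-in scaling. The same scalings moved all genes, of which 23.7% were then at least 1.5-fold higher and 2.67% lower without scaling, and 24.4% and 2.59% with spike-in scaling, where the main shares were 7.04% and 8.24%. The median of the members minus that of all genes was 0.08 with these scalings and with the 75th percentile, and 0.01 with no background filter. Of 656 values of single members under the alternatives, 494 stayed within 1 spot-level SD. The filter alternatives left the value of every member they kept as it was, and the probe rules cannot change a member with a single probe. The 494 therefore include many values that could not move. The signs of 37 of 56 members held under all alternatives run.

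With 1 pooled array per group, leaving out a replicate could not be run, and dim members such as Ero1l, Sec22c and Ern1 are limited by signal over background. The spot-level SD covers printing and scanning alone. No paired analysis was possible because each group holds 1 array.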
